A study of Homo sapiens with 7 samples.

Results

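Accessible regions of 8 genes of myeloid and monocyte differentiation, CEBPD, CSF1R, TYROBP, CD14, CD36, VCAN, MARCO and MMP8, were followed in chromatin accessibility data from Kasumi-1 cells with reduced PHF19. Their regions were chosen by the gene symbol that the deposited annotation gives to each region, in the pooled lists of regions that rose and fell in the knockdown. In all, 10 of the 8815 listed regions were found, 10 of the 8615 increased and 0 of the 200 decreased ones. CSF1R and MMP8 had 2 regions each and the other 6 genes 1 each. Because the genes were picked from these lists, that they rose is how they were chosen and is no finding.

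The assay, ATAC-seq, reads open chromatin from where a transposase can insert its adapters. Kasumi-1 is a cell line of acute myeloid leukaemia with the RUNX1-RUNX1T1 fusion gene. The 3 knockdown libraries came from cells given lentiviral PHF19 shRNA, and the 4 control libraries from cells given a scrambled shRNA, labelled WT in the treatment field. Both groups were put under puromycin at 2 µg/ml from 48 hours after the shRNA, for at least 24 hours, and 10000 cells went into each library. The lentiviral vector drives the shRNA from a U6 promoter and also carries green fluorescent protein and puromycin resistance. How many shRNA sequences were used is not given in the sources used here. Nor is it said that replicate libraries were separate cultures, so the spread behind the authors' p-values may be technical.

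PHF19 is a Polycomb-like protein that reads methylated histone H3 and helps bring Polycomb repressive complex 2 to chromatin, where that complex methylates histone H3 lysine 27. Monocytes and granulocytes arise from shared progenitors under the transcription factors PU.1 and C/EBP, and growth factor receptors such as CSF1R carry the survival signals of the monocyte branch. In leukaemia with RUNX1-RUNX1T1 this maturation is blocked. The surface receptors CD14, CD36 and MARCO and the adaptor TYROBP belong to mature phagocytes, MMP8 to neutrophil granules, and VCAN, a matrix proteoglycan, is also a marker of classical monocytes.

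Of the genes, 5 had a region in the promoter class, within 3 kb of a gene start, and an entry in the RefSeq promoter table (GRCh38.p14). Their windows, from 250 bases before to 50 bases after the start, are shown 5′ to 3′ on the gene's strand so that the promoters of the genes described below can be compared. Capitals mark the C/EBP core TTGCNNA, the PU.1 core GAGGAA and the RUNX core TGTGGT, searched on both strands. CSF1R has more than one RefSeq start, and the window shown is that of the start closer to the deposited one.
CSF1R chr5:150086505-150086804, minus strand: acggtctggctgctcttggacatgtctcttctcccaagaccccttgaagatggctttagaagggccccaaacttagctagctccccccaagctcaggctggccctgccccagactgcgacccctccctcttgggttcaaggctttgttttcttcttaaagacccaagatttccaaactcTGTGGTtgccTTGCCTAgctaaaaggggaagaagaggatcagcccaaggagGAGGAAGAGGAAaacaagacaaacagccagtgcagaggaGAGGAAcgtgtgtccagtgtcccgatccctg
TYROBP chr19:35908246-35908545, minus strand: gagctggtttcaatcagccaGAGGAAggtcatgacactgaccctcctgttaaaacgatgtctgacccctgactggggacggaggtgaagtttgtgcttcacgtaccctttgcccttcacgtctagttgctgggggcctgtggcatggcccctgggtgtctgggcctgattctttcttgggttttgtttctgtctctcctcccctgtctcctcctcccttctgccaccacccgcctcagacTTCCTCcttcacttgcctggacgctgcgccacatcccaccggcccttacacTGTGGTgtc
MMP8 chr11:102724905-102725204, minus strand: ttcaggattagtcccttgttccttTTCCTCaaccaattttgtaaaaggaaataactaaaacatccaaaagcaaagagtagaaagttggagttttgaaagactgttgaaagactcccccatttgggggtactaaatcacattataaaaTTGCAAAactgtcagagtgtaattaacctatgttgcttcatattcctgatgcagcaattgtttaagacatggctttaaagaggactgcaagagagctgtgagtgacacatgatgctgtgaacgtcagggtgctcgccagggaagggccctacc
MARCO chr2:118941944-118942243, plus strand: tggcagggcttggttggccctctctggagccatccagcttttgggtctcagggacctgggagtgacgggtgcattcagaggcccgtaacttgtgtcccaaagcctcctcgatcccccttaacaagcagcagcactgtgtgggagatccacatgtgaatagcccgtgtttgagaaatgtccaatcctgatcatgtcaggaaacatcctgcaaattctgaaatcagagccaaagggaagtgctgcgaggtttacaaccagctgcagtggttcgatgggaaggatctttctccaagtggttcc
VCAN chr5:83471494-83471793, plus strand: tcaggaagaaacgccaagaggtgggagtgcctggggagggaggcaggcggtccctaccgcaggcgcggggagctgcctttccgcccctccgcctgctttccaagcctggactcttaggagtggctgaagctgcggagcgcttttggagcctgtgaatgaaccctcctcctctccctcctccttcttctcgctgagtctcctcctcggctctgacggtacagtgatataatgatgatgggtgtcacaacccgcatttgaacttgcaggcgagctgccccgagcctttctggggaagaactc

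The CSF1R window shown held all 3 of these motifs. Its RUNX core lay at −71 to −66 and its C/EBP core at −61 to −55, counted from 0 at the start, and 3 PU.1 cores lay at −20 to −15, −14 to −9 and 19 to 24. The TYROBP window held 2 PU.1 cores and 1 RUNX core, and the MMP8 window 1 C/EBP and 1 PU.1 core. MARCO and VCAN held none of the 3. Of the 5 windows, 3 had a PU.1 core, 2 a C/EBP core and 2 a RUNX core, against 27.9%, 30% and 11.3% of 22197 RefSeq promoter windows of protein-coding genes. The AP-1 core TGANTCA was in 0 of the 5 (6.15% of all windows), the TATA box TATAAA in 1 (9.47%), the CRE half-site TGACG in 3 (27.9%) and the CCAAT box in 2 (34.7%). The window of the other CSF1R start (chr5:150113316-150113615) held none of the 3 and an AP-1 core at −34 to −28. With it in place of the one shown, 2 of the 5 windows had a PU.1 core, 1 a C/EBP core, 1 a RUNX core and 1 an AP-1 core. A match is a run of letters and does not show that a factor binds. None of the regions of these 5 genes came within 250 bases upstream or 50 bases downstream of its deposited transcript start. The closest, at CSF1R and TYROBP, ended 791 and 954 bases upstream of it. The CSF1R window shown belongs to a RefSeq start 33.3 kb from the gene's 3′ end, while the deposited transcript is 27.7 kb long. So the 791 bases are not a distance from that window, and the CSF1R region is placed against it below.

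All read counts below are group means of normalised reads from the authors' deposited table, with their log2 fold (knockdown over control) and false discovery rate (FDR), and carry no SD or n. In all 10 regions the deposited log2 fold was smaller than the difference of the log2 group means, so the ratio of the means is larger. The deposited fold was therefore read as shrunken toward 0, an inference, since the test is not given in the sources used here. Coordinates are as deposited and read as hg19. Sequencing depth is unknown here, and no value per library was analysed here, so overlap between libraries of the groups cannot be stated. The authors' list called 16.4% of the 52675 regions tested as increased and 0.38% as decreased, and 25.2% of protein-coding genes had an increased region. Since the genes were chosen from the same contrast, nothing is read from their count against these shares. The smallest absolute log2 fold of any listed region was 0.586. Whether the authors set a limit on fold beside their FDR limit of 0.05 is not given in the sources used here. If they did, the shares called and the medians and ranks of fold below are of regions past both limits.

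The transcription factor gene CEBPD, which encodes C/EBP delta, a factor induced in myeloid differentiation and inflammation, had the highest mean read count of the 10 regions. It was 24.9 reads in the control and 46.7 in the knockdown in the authors' deposited table, a log2 fold of 0.76 (FDR 0.0276). It was the smallest fold of the 10. The region lay at chromosome 8, 48650670 to 48651820, and was the only one of the 10 to cover a gene start, reaching from 1094 bases upstream to 56 bases into the gene. At 1151 bp it was also the widest, where the other 9 were 401 bp wide, as were 92.5% of all increased regions. Read counts are per region, and per 100 bp the CEBPD region had 2.16 reads in the control and 4.05 in the knockdown.

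**Figure D1:**
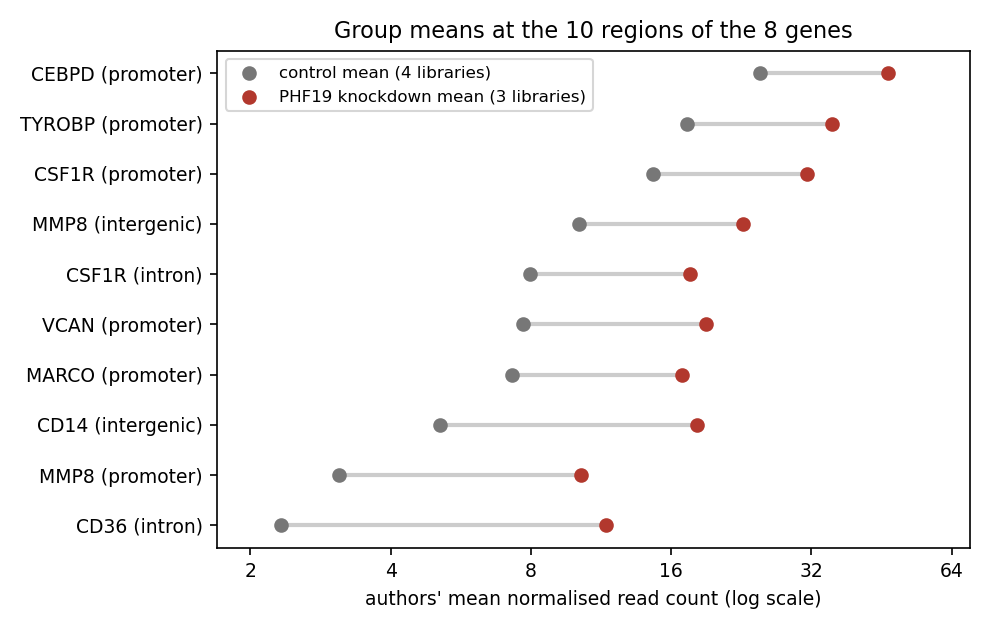
Authors' mean normalised read count per region (log scale, not per length) in control (grey) and PHF19 knockdown (red) libraries at the 10 regions of the 8 genes, ordered by control level. Control means ran from 2.32 reads at the CD36 intron to 24.9 at the CEBPD promoter, and the line between the points is longest at CD36, with no error shown because the means have none.

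CSF1R encodes the receptor for macrophage colony-stimulating factor, on which monocytes and macrophages depend. Its promoter-class region (chromosome 5, 149461378 to 149461778) rose from 14.6 reads in the control to 31.4 in the knockdown in the authors' deposited table, with a log2 fold of 0.89 and an FDR of 0.0131. A second region, in intron 12 of 13 of the deposited transcript and 21.9 kb downstream of its start (149438282 to 149438682), rose from 7.95 to 17.6 reads (log2 fold 0.84, FDR 0.0431). The gap between them was 22.7 kb, and the log2 folds differed by 0.05. The promoter call refers to a transcript of 27.7 kb, while the RefSeq gene is 60.1 kb long. The region started 28.5 kb from the 3′ end of the deposited gene, and the RefSeq start shown above lies 33.3 kb from the 3′ end in its own build. If both builds end the gene at the same base, the region lies inside the longer transcripts, downstream of that start.

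TYROBP encodes DAP12, the adaptor through which activating receptors of myeloid and natural killer cells signal. Its region, 954 to 1354 bases upstream of the start (chromosome 19, 36400165 to 36400565), had 17.3 reads in the control and 35.5 in the knockdown in the authors' deposited table (log2 fold 0.85, FDR 0.0149). Per 100 bp this was 4.32 and 8.85 reads, the highest of the 10 regions in both groups.

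CD14, the co-receptor that hands lipopolysaccharide to Toll-like receptor 4, had the largest deposited fold of the 10 regions and the smallest FDR. Its mean was 5.11 reads in the control and 18.1 in the knockdown in the authors' deposited table (log2 fold 1.26, FDR 0.00373). The region was classed as intergenic and lay 19.3 kb beyond the 3′ end of the gene (chromosome 5, 139991589 to 139991989), 21.0 kb from its start. The assignment to CD14 is by nearness alone.

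CD36, a scavenger receptor for oxidised lipoproteins and fatty acids, had the lowest control mean, 2.32 reads, and 11.6 reads in the knockdown in the authors' deposited table. The deposited log2 fold was 1.23 (FDR 0.00916), and the ratio of the means was 4.99, the largest of the 10. The region lay in intron 7 of 16 of one deposited transcript (chromosome 7, 80288766 to 80289166). Its distance, 12.8 kb downstream, is from the start of another, shorter one of 27.8 kb, while the RefSeq gene spans 77.1 kb. MARCO, a macrophage receptor that binds bacteria and particles, rose from 7.30 to 16.9 reads at a region 1332 to 1732 bases upstream of its start (chromosome 2, 119698013 to 119698413; log2 fold 0.85, FDR 0.0417).

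VCAN encodes versican. Its region lay 1849 to 2249 bases downstream of the start, inside the gene but in the promoter class (chromosome 5, 82769342 to 82769742), and rose from 7.69 to 19.0 reads in the authors' deposited table (log2 fold 0.96, FDR 0.0199). MMP8, neutrophil collagenase, had a pair of upstream regions on chromosome 11 with a gap of 4.94 kb. The closer one, 2932 to 3332 bases from the start (102598617 to 102599017), had 3.11 reads in the control and 10.2 in the knockdown (log2 fold 0.95, FDR 0.0433). The farther one began 8273 bases upstream (102603958 to 102604358), was classed as intergenic, and had 10.1 and 22.8 reads (log2 fold 0.91, FDR 0.0212). The region of the pair with fewer reads had the higher ratio of means, 3.30 against 2.25, and the deposited folds differed by 0.04.

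**Figure D2:**
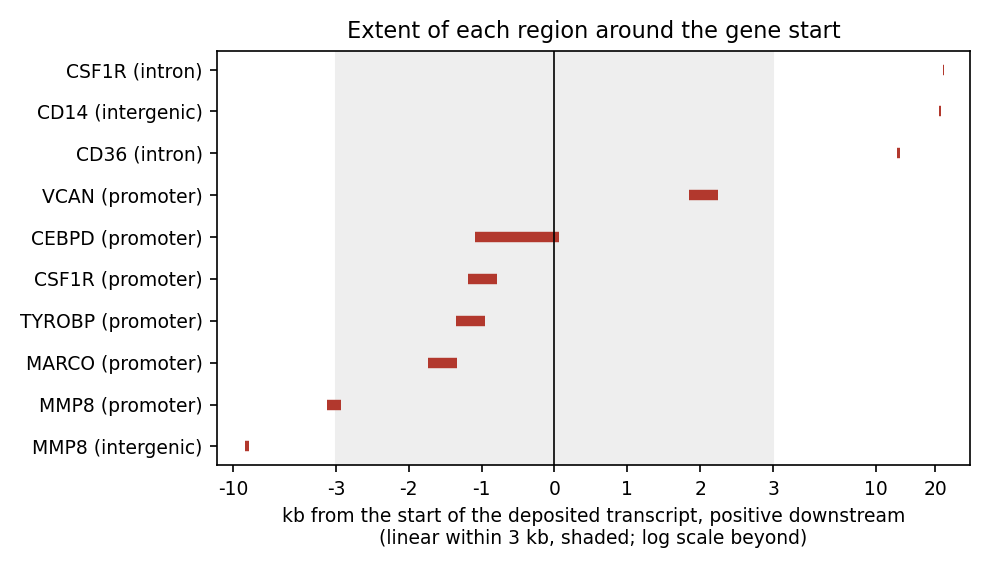
Extent of each of the 10 regions in kb from the start of its deposited transcript, positive downstream, linear within 3 kb (shaded, the promoter class) and on a log scale beyond. The CEBPD region alone crosses the start, 4 of the other promoter-class regions lie upstream of it, and the VCAN region lies 1.85 kb downstream.

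By position the 10 regions were thus 6 in the promoter class, 2 intronic and 2 intergenic. Of all increased regions 50.1% were in the promoter class, and 69.1% of those covered a gene start, as 1 of these 6 did. The 6 promoter-class regions had log2 folds from 0.76 to 0.96 in the authors' deposited table, and the other 4 from 0.84 to 1.26. Over all increased regions the median log2 fold was 0.89 in the promoter class and 1.02 elsewhere, with median control means of 22.9 and 5.41 reads.

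Most of the 10 regions lay under the median of all increased regions in fold and in read count. The median log2 fold was 0.90 over the 10 regions and 0.97 over all 8615, and 8 of the 10 were under the latter. The median of the mean over all libraries was 12.3 reads here and 18.3 over all increased regions, with 7 of the 10 under it. CD14 and CD36 stood above 88.0% and 86.2% of all increased regions in fold, and CEBPD above 13.5%. Among the increased regions with a like mean (within 0.25 on the log2 scale), CD14 stood above 81.4% of 1183 and CD36 above 79.0% of 852. MARCO and the intronic CSF1R region stood above only 4.77% of 1173 and 4.87% of 1190, close to the authors' FDR limit of 0.05. Of the 10 regions, 2 had an FDR of 0.01 or less, those of CD14 and CD36, as did 45.9% of all increased regions (13.9% of protein-coding genes had such a region). The same 2 reached a log2 fold of 1, as did 43.4% of all increased regions (11.3% of protein-coding genes). These are descriptions of chosen regions, with no test.

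**Figure D3:**
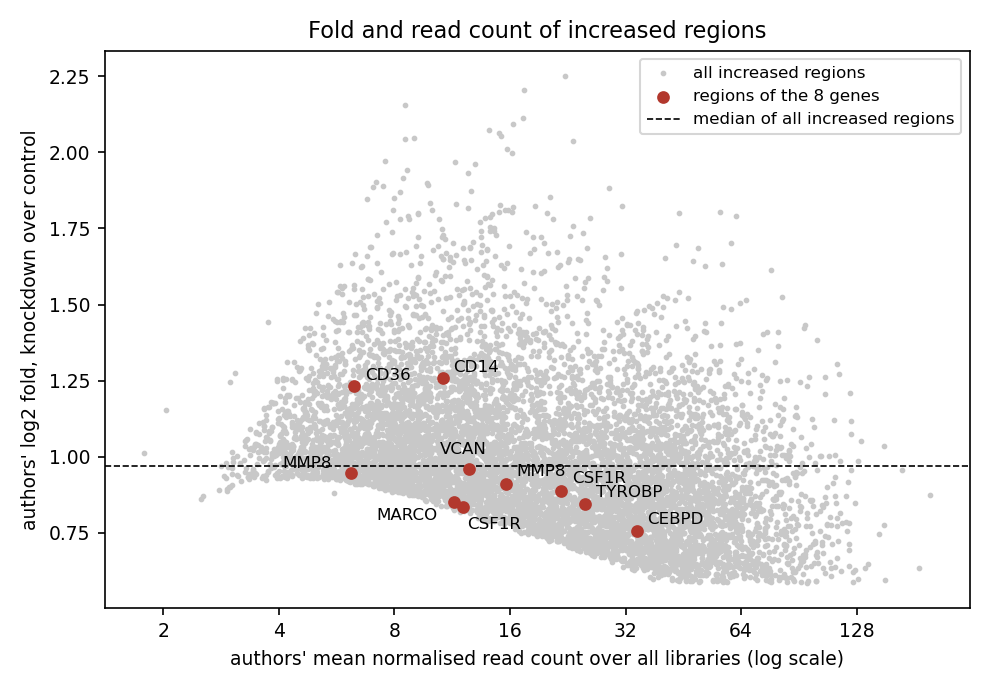
Authors' log2 fold against the overall mean of normalised reads, also the authors' (log scale), for the 8615 increased regions (grey) and the 10 regions of the 8 genes (red), with the median of all increased regions, 0.97, as a dashed line. CD14 and CD36 lie above the line and the other 8 regions below it, with MARCO and the intronic CSF1R region at the lower edge of the cloud.

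The genes differed in how many listed regions lay near them. The CD14 region had the increased promoters of IK, WDR55 and HARS2 within 100 kb, at gaps of 35.1, 52.2 and 78.8 kb, with log2 folds of 0.93, 1.09 and 0.92 in the authors' deposited table. IK encodes a splicing factor and HARS2 a mitochondrial aminoacyl-tRNA synthetase. The CSF1R regions had the promoter of HMGXB3 within 100 kb (log2 fold 1.04, 58.0 kb from the intronic region), and the TYROBP region had 1 near LRFN3 (0.64, at 21.8 kb). The regions of CEBPD, VCAN, MARCO and CD36 had none, with the next listed region 137, 167, 283 and 552 kb away. The MMP8 regions had only each other within that distance. Counting such pairs at the same gene, 6 of the 10 regions had another listed region within 100 kb, as did 64.8% of all increased regions.

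The genes CD14, CSF1R and VCAN, with 4 of the 10 regions, lie on chromosome 5. Of its protein-coding genes, 44.4% had an increased region. CD36 lies on chromosome 7, with a share of 51.5%, against 25.2% of all protein-coding genes. For MARCO on chromosome 2 the share was 33.8%, for CEBPD on chromosome 8 it was 30.5%, for MMP8 on chromosome 11 it was 25.8%, and for TYROBP on chromosome 19 it was 13.7%. The part of the chromosome in the results was not tested.

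The wider pathways were read from 7 myeloid lists by role, in which 40 of 151 genes (26.5%) had an increased region, near the 25.2% of all protein-coding genes. Without the 8 genes it was 32 of 143 (22.4%). In the promoter class it was 24 of 151 (17.5% of all protein-coding genes had such a region). Within 10 kb of a start it was 30 of 151 and within 100 kb 38 of 151, against 19.1% and 23.6% of all protein-coding genes. The median log2 fold of the 61 regions was 0.95, and 0.97 over all increased regions. Only 1 gene, VAV1, had a decreased region (0.818% of all protein-coding genes did). A gene with no listed region may still have changed by less than the authors' limit.

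Of 27 myeloid transcription factors 13 had an increased region (48.1%), 6 of them in the promoter class (17.5% of all protein-coding genes had such a region). The circadian repressor gene BHLHE40 (log2 fold 1.17 in the authors' deposited table) and the early growth response factor EGR1 (1.15) rose at their promoters. Others were CEBPD, CEBPG, EGR2, ID2, KLF2, MAF, MITF, RARA, RXRA and ZEB2. SPI1, CEBPA, CEBPB, CEBPE, GFI1 and IRF8 had no listed region. CEBPG, which encodes another member of the C/EBP family, rose at its promoter with a log2 fold of 1.08, against 0.76 at CEBPD.

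Among 16 growth factor receptors and ligands, CSF1R, KIT and KITLG had increased regions (18.8%). KITLG, the ligand of KIT, had the largest, 84.2 kb from its start (log2 fold 1.30 in the authors' deposited table), and the largest at KIT was intronic (0.84), beside 0.89 at CSF1R. CSF3R, CSF2RA, CSF2RB and FLT3 had none. Of 24 TYROBP receptors and signalling genes 7 had one (29.2%), TYROBP, BTK, CLEC5A, LCP2, LYN, OSCAR and VAV1. In the promoter class it was 6 of 24, against 17.5% of all protein-coding genes. CLEC5A, a receptor that signals through TYROBP, had 2, the larger 499 bases from its start (log2 fold 1.22), and the kinase gene BTK rose at its promoter (1.05). LCP2, the adaptor SLP-76, had 3 regions, with 1.05 the largest. VAV1, a guanine nucleotide exchange factor, rose at its promoter (0.77) and fell in an intron 44.9 kb downstream (−1.02, FDR 0.0118).

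Of the 18 genes of the CD14 and Toll-like receptor system 8 had an increased region (44.4%), CD14, IRAK4, LY96, MYD88, TICAM2, TLR2, TLR4 and TRAF6. Taking the largest region of each gene, the highest log2 folds after CD14 in the authors' deposited table were 1.15 at TLR4, in a region 818 kb from its start, and 1.11 at LY96, which encodes the partner of TLR4 in lipopolysaccharide binding, 60.7 kb from its start. MYD88, the adaptor of most Toll-like receptors, rose at its promoter. The promoters of TRAF6, TICAM2 and IRAK4 rose too, whereas the regions of CD14, TLR2, TLR4 and LY96 were all intergenic. In the promoter class it was thus 4 of 18 genes, against 17.5% of all protein-coding genes.

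Scavenger and phagocytic receptors had 4 of 24 genes with an increased region (16.7%), CD36, MARCO, SCARB1 and FCGR3A. The FCGR3A region (log2 fold 1.15) lay in an exon of another transcript, and this gene has a near-identical copy, so its reads are of uncertain origin. Of 32 granulocyte granule and matrix genes 4 had one (12.5%), among them MMP8, VCAN and the oxidase subunit gene NCF1 (log2 fold 1.17 in the authors' deposited table). NCF1 too has near-identical copies. The granule genes MPO, ELANE, PRTN3, AZU1, CTSG and LTF had none. Of 24 monocyte and macrophage markers 6 had one (25%), CD14, CSF1R, FCGR3A, MARCO, MS4A7 and VCAN. Among 17 T lymphocyte markers 1 (IL7R, 5.88%) and among 16 erythroid markers 1 (TFRC, 6.25%) had one. Of all protein-coding genes 25.2% had one, and all these shares count genes with or without a tested region. No difference between these marker groups was tested. The lists hold changed regions only, so the cell type of the label could not be checked against markers.

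**Figure D4:**
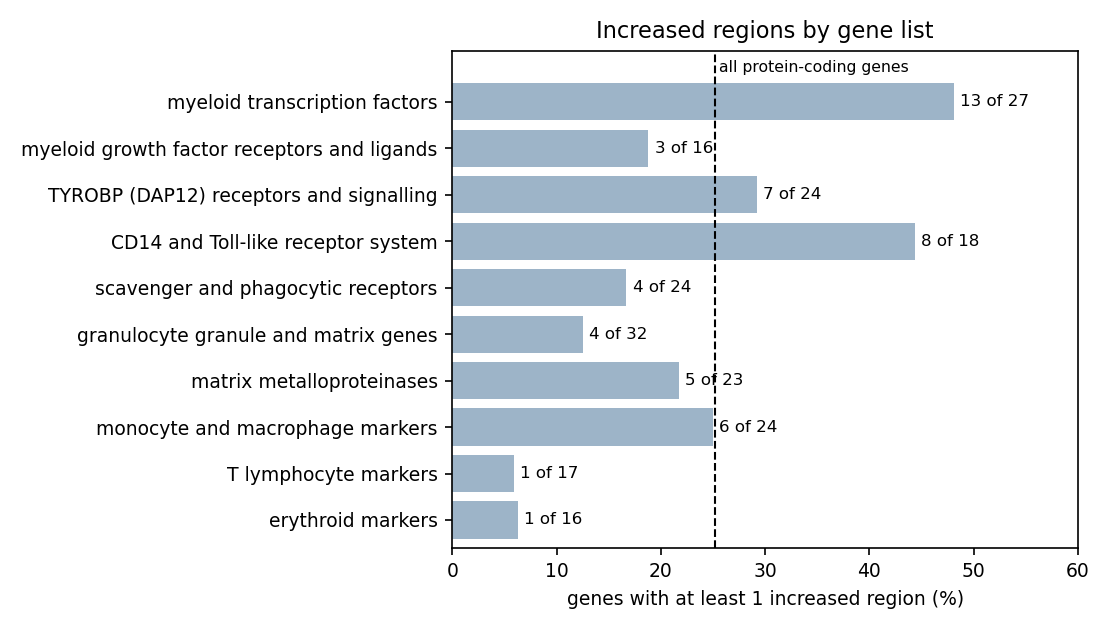
Percent of the genes of each list with at least 1 increased region (bars from 0), with the number of genes, and the 25.2% of all protein-coding genes as a dashed line. Myeloid transcription factors, the CD14 and Toll-like receptor system and the TYROBP genes lie above the line, and monocyte and macrophage markers on it. All other lists lie below it, and several lists share members. In the promoter class the lists above the line had, in that order, 6 of 27, 4 of 18 and 6 of 24 genes, against 17.5% of all protein-coding genes. Bars and line count genes with or without a tested region, and regions at any distance.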

How the data were processed

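ATAC-seq regions from 4 control and 3 knockdown libraries were used as the authors deposited them, with no value per library. Per the file headers, each region has log2 mean normalised read counts (over all libraries and per group), a log2 fold, a p-value and an FDR, all made by the authors before deposit. Per the submitters' processing notes, the tools were MACS2 2.2.6, deepTools 1.5.12, Picard 2.2.4 and Bowtie2 2.4.1, with no role or order stated. Not given in the sources used here are the scaling, the test and any shift of reads for the transposase. The share of regions that rose can depend on the scaling. The group columns were assigned from their headers, from the overall mean, which weights the knockdown column by 0.429 (3 of 7 libraries), and from its being the higher in the list named as increased.

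The notes name hg38, but 0.0910% of the regions matched by gene identifier, and 0 of the 10 described, had the GRCh38 gene start. The 52675 tested regions were recovered from p-value and FDR, a step tested on simulated data. Group means were turned into reads as powers of 2, and ranks, gaps, shares and motif matches were computed with Python 3.11.15, pandas 2.3.3, numpy 2.4.6 and matplotlib 3.10.9. Protein-coding genes and promoters came from RefSeq tables, in which all symbols of the lists matched and 7 of the 8 genes had a promoter. The genes and lists were chosen with earlier results of these data known, so no test of the authors' contrast was added. Named were all regions of the 8 genes, the list genes with a listed region, with values for at most 3 a list beside comparisons with the 8, and at most 3 neighbours within 100 kb. CEBPG, VAV1, MMP7 and the list genes without a region were singled out after their values were seen. Some list genes are counted but not reported here by name. The alternatives were an FDR limit of 0.01, a log2 fold of 1, distance limits of 100 and 10 kb, the promoter class alone and the difference of the group means.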

Additional observations from a re-analysis of the deposited data

How the results depend on the processing

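All 8 genes had an increased region within 100 kb of the start, and 6 within 10 kb or in the promoter class. Of all protein-coding genes, 23.6%, 19.1% and 17.5% had one in these settings. The 8 were chosen from the increased list, so nothing is read from their counts against these shares. At an FDR of at most 0.01, or a log2 fold of at least 1, 2 of the 8 were left, CD14 and CD36 (13.9% and 11.3% of protein-coding genes). Of the 151 genes of the myeloid lists, 40 had an increased region, 38 within 100 kb of a start and 30 within 10 kb. There were 24 in the promoter class, 18 at an FDR of at most 0.01 and 20 at a log2 fold of at least 1. Without the 8 genes, 32 of the list genes had an increased region, a setting added once the data had been seen. The difference of the log2 group means, with no shrinkage, was larger than the deposited log2 fold in all 10 regions. It was 2.32 at CD36, 1.83 at CD14, 1.31 at VCAN, 1.21 at MARCO, 1.03 at TYROBP and 0.91 at CEBPD. At the 2 regions of MMP8 it was 1.72 (closer) and 1.17, and at those of CSF1R 1.10 (promoter) and 1.15 (intron). By it CD36 and not CD14 had the largest change, and 9 of the 10 regions passed 1. With the other RefSeq start of CSF1R, also added once the data had been seen, the PU.1, C/EBP, RUNX and AP-1 cores were in 2, 1, 1 and 1 of the 5 promoter windows, and in 3, 2, 2 and 0 with the start shown. No paired analysis was possible because the files hold group means and no value per library, and for the same reason no library was left out. Low read counts limit the values most at CD36 and the closer MMP8 region.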

Other observations

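MMP8 lies in a cluster of matrix metalloproteinase genes on chromosome 11. Increased regions were also assigned to MMP7 and MMP13, at gaps of 150 kb and at least 191 kb from those of MMP8. The 5 regions of these 3 genes spanned 364 kb in the deposited coordinates. The largest log2 folds in the authors' deposited table were at MMP13, collagenase 3, at intergenic regions 14.4 kb (1.36, from 4.21 reads in the control to 17.3 in the knockdown) and 30.3 kb (1.29, from 5.34 to 19.4) from its start. Both were larger than the 0.95 and 0.91 at MMP8. The MMP7 region (0.92) lay 46.4 kb upstream of the MMP7 start, outside that transcript, and was annotated to a 3′ untranslated region. Its assignment to MMP7 is by nearness alone. Of 23 matrix metalloproteinase genes 5 had an increased region (21.7%), the other 2 being MMP2 and MMP16, and only MMP8 had one in the promoter class.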
